A study of Homo sapiens with 30 samples.

Results

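The regions described here were promoter regions of long intergenic noncoding RNA (lincRNA) genes, marked by H3K4me3 and H3K27ac in a human B-cell lymphoma line. The deposited H3K4me3 table held 21268 regions, and 147 of them (0.691%) met the rule. A region was kept when it lay on chromosomes 1 to 22, was under 4000 bp long, overlapped a region of the H3K27ac table, and lay within 1 kb of either end of a RefSeq gene whose symbol starts with LINC. It was dropped when the end of any other gene lay within 1 kb. The 147 regions belonged to 144 LINC genes, 6.35% of the 2268 LINC genes that RefSeq places on these chromosomes. The nearest end of any other gene lay 1039 to 279897 bp away (median 9231 bp), and 11 regions lay inside another gene. A further 74 regions met the rest of the rule but overlapped no H3K27ac region, and 5 were 4000 bp or longer. The rule used position and the presence of a called region, and no change between treatments. However, the regions are consensus regions shared by all treatment groups, and the groups in which each was called were not examined. A region may therefore be present, or pass the count filter, only through the group in which it is high.

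The cells were OCI-Ly1, an established line from a human diffuse large B-cell lymphoma. They received JIB-04, a small molecule that inhibits Jumonji histone demethylases, at a dose of 150 nM or of 500 nM, and control cells received the vehicle alone, 0.01% DMSO. All cells were kept in IMDM with fetal bovine serum and penicillin-streptomycin. The duration of treatment was not given in the sources used here. Each of the 3 groups had 2 libraries for each mark. The labels do not say that these came from separate cultures, so p-values measure the spread between these libraries, which may be technical. All groups came from 1 cell line.

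LINC symbols name genes that make long RNAs without a known protein product and lie between other genes. Nucleosomes at active promoters carry H3K4me3, which KDM5 demethylases of the Jumonji class remove, and H3K27ac, which also marks active enhancers. Promoters of lincRNA genes are known to hold fewer CpG islands than those of coding genes, and many lie close to or within enhancers. Most of the LINC genes named below have no established function, and none is given for them.

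For 86 of the 147 regions the RefSeq promoter table (GRCh38.p14) held a start site within 1 kb of the region, and 70 of these start sites lay inside it. For 15 regions the start site lay farther away, and which end of the gene these regions touched was not checked. A further 46 regions had no gene in that table, so a start site was not located for every region. All 147 regions are called LINC promoters below, with or without a located start site. The windows printed here run from 250 bases before the start site to 50 bases after it, on the gene's strand. Capitals mark matches to any of 8 short promoter motifs on either strand, with overlapping matches merged, and the letters of each motif are given with its share after the windows. The first pair is shown because H3K4me3 rose there at 500 nM, LINC02298 at chr14:105093897-105094196 (plus strand) and LINC02611 at chr2:98771849-98772148 (minus strand).
LINC02298: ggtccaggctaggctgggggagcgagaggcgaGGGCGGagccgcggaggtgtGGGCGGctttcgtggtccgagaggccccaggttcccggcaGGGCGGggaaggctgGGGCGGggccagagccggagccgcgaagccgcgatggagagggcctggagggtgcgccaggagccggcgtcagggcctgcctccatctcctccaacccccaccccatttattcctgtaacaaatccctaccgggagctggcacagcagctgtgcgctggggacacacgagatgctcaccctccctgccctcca
LINC02611: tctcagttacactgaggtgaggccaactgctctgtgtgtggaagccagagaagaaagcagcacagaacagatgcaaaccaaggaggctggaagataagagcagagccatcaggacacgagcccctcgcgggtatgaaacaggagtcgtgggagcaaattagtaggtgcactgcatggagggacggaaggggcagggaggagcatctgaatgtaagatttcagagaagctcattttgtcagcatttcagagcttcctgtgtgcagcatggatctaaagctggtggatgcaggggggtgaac
The second pair is shown because H3K4me3 fell there, LINC02526 at chr6:106695235-106695534 and LINC01353 at chr1:203286902-203287201, both on the plus strand.
LINC02526: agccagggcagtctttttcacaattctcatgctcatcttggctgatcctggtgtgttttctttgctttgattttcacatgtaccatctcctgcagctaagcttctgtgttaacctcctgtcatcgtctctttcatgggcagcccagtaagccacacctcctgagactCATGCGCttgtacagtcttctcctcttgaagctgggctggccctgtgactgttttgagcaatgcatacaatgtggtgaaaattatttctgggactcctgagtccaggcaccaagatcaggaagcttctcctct
LINC01353: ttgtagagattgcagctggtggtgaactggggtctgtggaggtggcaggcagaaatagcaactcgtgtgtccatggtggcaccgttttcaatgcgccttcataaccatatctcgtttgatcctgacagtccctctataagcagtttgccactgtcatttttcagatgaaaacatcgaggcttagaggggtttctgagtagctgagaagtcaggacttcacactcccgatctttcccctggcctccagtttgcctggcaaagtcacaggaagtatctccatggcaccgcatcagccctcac
The last pair had the highest H3K4me3 per kb in vehicle, LINC01003 at chr7:152463874-152464173 and LINC03011 at chr7:66493382-66493681, both on the plus strand.
LINC01003: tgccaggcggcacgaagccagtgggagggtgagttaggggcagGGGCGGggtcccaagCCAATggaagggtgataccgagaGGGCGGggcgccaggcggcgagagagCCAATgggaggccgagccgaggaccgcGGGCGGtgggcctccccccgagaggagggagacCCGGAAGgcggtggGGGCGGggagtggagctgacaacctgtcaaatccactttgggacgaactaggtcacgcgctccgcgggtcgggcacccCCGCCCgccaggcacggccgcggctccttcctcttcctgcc
LINC03011: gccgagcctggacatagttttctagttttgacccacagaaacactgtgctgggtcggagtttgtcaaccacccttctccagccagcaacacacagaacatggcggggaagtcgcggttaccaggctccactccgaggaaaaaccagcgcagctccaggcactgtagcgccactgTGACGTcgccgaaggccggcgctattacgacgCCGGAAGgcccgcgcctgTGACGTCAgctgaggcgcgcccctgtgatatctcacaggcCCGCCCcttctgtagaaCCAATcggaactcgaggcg
The last pair held 28 and 25 CpG dinucleotides and had ratios of observed to expected CpG of 0.749 and 0.911. LINC02298 held 22 and a ratio of 0.598, with 4 GC boxes. The windows of LINC02611, LINC02526 and LINC01353 held 5, 2 and 7 CpG dinucleotides, with ratios of 0.265, 0.118 and 0.364. The windows of LINC02611 and LINC01353 held no match to the 8 motifs.

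The 85 member genes with a start site within 1 kb had a median GC content of 57.7% and a median CpG ratio of 0.553. Over all 1583 LINC genes of the promoter table the medians were 47.7% and 0.250, and over its 15843 protein-coding genes they were 62.7% and 0.763. The GC box, GGGCGG, stood in 48.2% of the member windows, against 18.3% of all LINC windows and 44.6% of all 27305 windows of the table. The motif CCAAT, read by the NF-Y factor, stood in 34.1% of member windows and 35.7% of all windows. For the core promoter element TATAAA these shares were 10.6% and 11.95%. For the E box, CACGTG, they were 11.8% and 7.43%, and for the ETS-type motif CCGGAAG they were 12.9% and 10.7%. The core of the cyclic AMP response element, TGACGT, stood in 8.24% and 8.32% of the windows. For the NRF1-type motif GCGCATG the shares were 7.06% and 4.67%, and for the AP-1-type motif TGACTCA 3.53% and 4.92%. These shares are descriptions, with no test.

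The counts lay between 9686420 and 12327122 per H3K4me3 library and between 4360660 and 5410292 per H3K27ac library. Levels are given in CPM, the counts of a region scaled to the library's counts in all regions of the mark after TMM scaling, and levels compared between regions are given as CPM per kb. The difference between the 150 nM H3K4me3 libraries was below sampling noise, with a chi-square per degree of freedom of 0.928, and DMSO replicate 1 differed as little (0.953) from 150 nM replicate 1. The pairs of DMSO and 500 nM libraries gave 7.26 to 8.46. For H3K27ac the 150 nM libraries differed from each other more, at 2.31, than DMSO libraries did from 500 nM libraries, at 1.91 to 2.10. The DMSO pair gave 1.30 for H3K27ac and the 500 nM pair 1.24. Of the markers listed for the cell type, 8 of 8 B-cell genes and 6 of 6 germinal centre B-cell genes had an H3K4me3 region at a gene end, against 2 of 5 T-cell and 1 of 5 myeloid genes.

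H3K4me3 at the LINC regions in vehicle was lower per kb than at protein-coding gene ends, while the H3K27ac medians were close. The median H3K4me3 level of the 144 tested LINC regions was 12.2 CPM per kb (quartiles 6.10 and 21.9). With the same limits on chromosome, length and H3K27ac overlap it was 35.2 CPM per kb at 8141 protein-coding gene ends. It was 14.7 at 814 ends of long noncoding RNA genes without a LINC symbol and 5.799 at 4879 regions away from gene ends. Unlike the LINC regions, those of the protein-coding class could lie near the end of any further gene without a LINC symbol. The other long noncoding RNA class excluded protein-coding ends but allowed further gene ends as well. Median H3K27ac was 14.7 CPM per kb over the 141 tested H3K27ac regions that overlapped a LINC promoter, against 15.8, 14.5 and 14.0 in the same order. The differences between these classes were not tested. LINC promoter regions had a median length of 1392 bp (236 to 3907 bp), and those at protein-coding gene ends 2185 bp.

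The highest H3K4me3 stood at LINC01003, with 69.2 ± 2.50 CPM per kb in DMSO (SD, n = 2). LINC03011 followed at 59.1 ± 3.29, LINC01311 at 54.8 ± 0.577, LINC03009 at 46.0 ± 3.06 and LINC01970 at 45.3 ± 2.28 CPM per kb. LINC03009 and LINC01970 differed by less than their SDs. At the low end LINC01342, LINC02365 and LINC01397 stood at 1.29, 1.59 and 1.70 CPM per kb. H3K27ac was highest at LINC02265, LINC01003 and LINC01814, with 43.1 ± 0.884, 42.5 ± 6.13 and 41.2 ± 0.727 CPM per kb, and LINC01585 region 1 (37.7 ± 2.56) and LINC01353 (36.3 ± 0.101) came next. LINC01003 was in the top 5 for both marks. Across 143 regions the levels of both marks had a Spearman correlation of 0.20, over regions that share the same libraries and differ in base composition.

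The level of H3K4me3 went with CpG content. The 36 regions whose promoter window had a CpG ratio of at least 0.6 had a median of 22.1 CPM per kb in DMSO, and the 48 tested regions of the 50 below it had 8.29. Across the 84 tested regions with a start site the Spearman correlation of level and CpG ratio was 0.49, and that of the change at 500 nM and the CpG ratio was −0.02. These points share libraries, and the counts were not corrected for base composition.

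**Figure D1:**
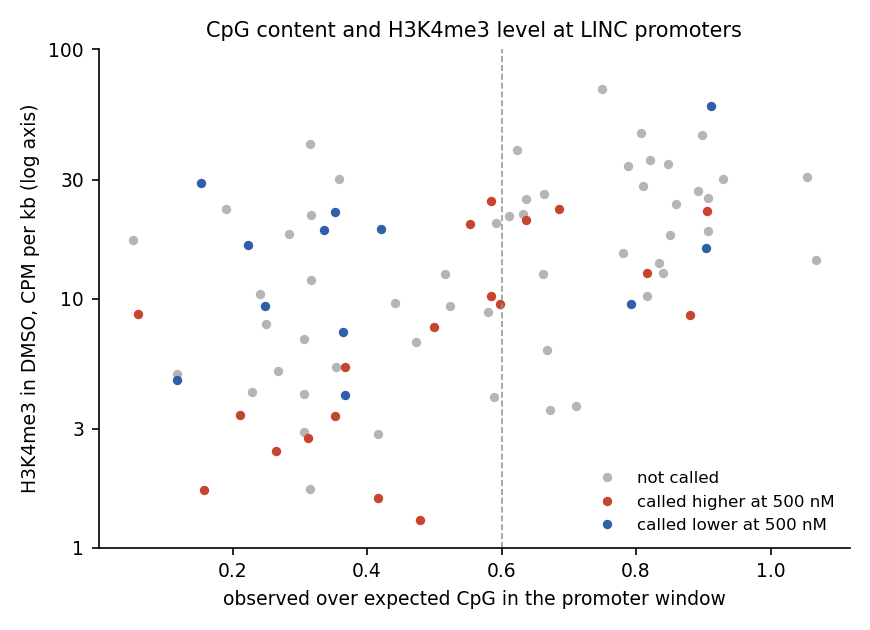
H3K4me3 level in DMSO (mean of 2 libraries, CPM per kb, log axis) against the observed over expected CpG ratio of the promoter window, 1 point for each of 84 LINC regions with a start site within 1 kb. The dashed line marks a ratio of 0.6, right of which the median was 22.1 CPM per kb against 8.29 to its left.

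At 500 nM JIB-04, H3K4me3 changed at many LINC promoters relative to the other regions, in both directions and by similar numbers. Against DMSO, 30 regions rose and 29 fell of 144 tested, 41.0% in all. A call is an adjusted p under 0.05 (Benjamini-Hochberg) in the quasi-likelihood test of edgeR. Over all 20402 tested H3K4me3 regions 39.4% were called, 20.7% higher and 18.7% lower, so the share at LINC promoters was near the background. The median log2 fold change was −0.01 at LINC promoters and −0.01 over all tested regions, and the quartiles at LINC promoters were −0.19 and 0.26. TMM scaling centres the changes over the regions of a mark near no change, so all changes given here are relative. A shift shared by all regions could not show, for either mark or dose. The near-even split and the median therefore cannot decide whether H3K4me3 as a whole rose or fell. At protein-coding gene ends 11.8% rose and 21.5% fell, at the other long noncoding RNA gene ends 19.7% rose and 20.3% fell, and away from gene ends 15.3% rose and 19.9% fell. These differences between classes were not tested.

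The split into rises and falls depended on the scaling. With loess offsets, which centre the changes at each abundance, 21 regions were called higher and 33 lower. DESeq2's Wald test called 12 higher and 16 lower, all 28 of them among the 59. Without DMSO replicate 1 the counts were 18 higher and 23 lower. In 100 of the 144 regions (69.4%) both 500 nM libraries lay on one side of both DMSO libraries, and this held for 68.0% of all tested regions.

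Among the regions that rose, LINC01397 on chromosome 1 (110083664 to 110085021) changed most. It stood at 2.37 and 2.26 CPM in DMSO, 2.24 and 3.26 CPM at 150 nM, and 11.7 and 11.7 CPM at 500 nM. Both 500 nM libraries were far above the other 4, and the fold change against DMSO was 5.04 (log2 2.33 ± 0.20 SE, edgeR adjusted p = 1.13e-14). Its H3K27ac region was 302 bp long and too thinly covered to be tested, with 2 to 17 counts per library. LINC02298 on chromosome 14 (105092756 to 105094315), 27326 bp from GPR132, stood at 15.1 and 14.5 CPM in DMSO, 14.9 and 18.4 CPM at 150 nM, and 35.4 and 35.8 CPM at 500 nM. The 500 nM libraries did not overlap the others there, and the rise was 2.40-fold (log2 1.26 ± 0.09 SE, adjusted p = 1.57e-17). LINC03008 on chromosome 7 (130140999 to 130141967) stood at 7.104 and 7.86 CPM in DMSO, 6.54 and 6.24 CPM at 150 nM, and 14.8 and 11.6 CPM at 500 nM. Its rise was 1.79-fold (log2 0.84 ± 0.15 SE, adjusted p = 5.54e-06). The start site lay inside the region at both LINC02298 and LINC03008, and 976 bp from the region at LINC01397.

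The other 5 of the 8 largest rises began from under 2 CPM in DMSO. LINC02365 stood at 0.408 and 1.18 CPM in DMSO, 0.538 and 0.745 CPM at 150 nM, and 1.96 and 2.96 CPM at 500 nM. LINC01342 stood at 0.898 and 0.982 CPM in DMSO, 0.896 and 1.02 CPM at 150 nM, and 2.21 and 3.47 CPM at 500 nM. In both the 500 nM libraries lay above the other 4, with log2 fold changes of 1.66 ± 0.41 SE (adjusted p = 0.000856) and 1.56 ± 0.37 SE (adjusted p = 0.000415). These values came from 5 to 34 counts per library. LINC02768, LINC02611 and LINC01825 rose by 1.11 ± 0.37, 1.10 ± 0.34 and 1.01 ± 0.30 on the log2 scale (adjusted p = 0.0140, 0.00806 and 0.00532), from 9 to 19 counts per DMSO library. Several of these calls were lost when 1 library was left out. Without DMSO replicate 1 the adjusted p was 0.113 at LINC02365, 0.0547 at LINC02768, 0.0723 at LINC02611 and 0.0576 at LINC01825. LINC02768 had an adjusted p of 0.125 when DMSO replicate 2 was left out and 0.0802 when 500 nM replicate 2 was, and LINC01825 had 0.0524 when 500 nM replicate 1 was. With loess offsets LINC02768, LINC02611 and LINC01825 changed by 0.60, 0.66 and 0.65 (adjusted p = 0.223, 0.142 and 0.0819). With DESeq2 these 3 and LINC02365 were not called (adjusted p = 0.192, 0.157, 0.122 and 0.0647).

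Below the 8 largest, the remaining 22 rises ran from 0.15 to 0.83 on the log2 scale. Of the 84 tested regions with a start site within 1 kb, 19 rose and 12 fell. The 46 regions without a gene in the promoter table had 8 rises and 14 falls. The 14 tested regions with a start site farther than 1 kb away had 3 of each. Inside another gene 3 of 11 regions rose and 1 fell. LINC01717, LINC01091 and region 2 of LINC01132 had too few counts to be tested.

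The largest falls included LINC01814, LINC02455 and LINC00926 region 1, each at a higher level in DMSO than any of the 8 largest rises. LINC01814 on chromosome 2 (8580979 to 8584290) stood at 46.4 and 45.1 CPM in DMSO, 52.0 and 51.3 CPM at 150 nM, and 19.4 and 17.5 CPM at 500 nM. Its 500 nM libraries lay below all others, with a log2 fold change of −1.31 ± 0.08 SE (edgeR adjusted p = 1.12e-21). LINC02455 on chromosome 12 (672732 to 675464), 9287 bp from NINJ2, stood at 38.2 and 35.7 CPM in DMSO, 38.5 and 38.4 CPM at 150 nM, and 13.7 and 12.05 CPM at 500 nM. That was a change of −1.52 ± 0.09 SE (adjusted p = 2.46e-21). LINC02526 on chromosome 6 (106695418 to 106697534) stood at 11.4 and 8.55 CPM in DMSO, 10.8 and 10.8 CPM at 150 nM, and 4.42 and 4.596 CPM at 500 nM. LINC01353 on chromosome 1 (203286369 to 203287389), 11369 bp from the divergent transcript of BTG2, stood at 8.57 and 6.48 CPM in DMSO, 10.4 and 6.70 CPM at 150 nM, and 4.08 and 3.57 CPM at 500 nM. The changes at LINC02526 and LINC01353 were −1.16 ± 0.18 SE (adjusted p = 3.2e-07) and −0.98 ± 0.21 SE (adjusted p = 0.000141), and at both the 500 nM libraries lay below the other 4. The start site lay inside the region at both. No start site was located within 1 kb of LINC01814, LINC02455, LINC00926 region 1, LINC01559, LINC03019 region 1 or LINC01993. All 8 largest rises had a start site within 1 kb. With such a start site, 7 regions rose and 1 fell by at least 1 on the log2 scale. Of the regions without a gene in the promoter table, 3 fell and none rose by that much.

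The largest fall by fold was at LINC01559 on chromosome 12 (13376018 to 13376339), a 322 bp region inside an H3K27ac region of 12663 bp. It held 19 and 11 counts in the DMSO libraries, 4 and 10 in those of 150 nM and 4 and 3 in those of 500 nM, a log2 fold change of −2.00 ± 0.55 SE (adjusted p = 0.00282). The ratio of summed counts, adjusted for depth, was 0.243 with a 95% exact interval of 0.0900 to 0.564 that covers counting error only. Without DMSO replicate 1 its change was −1.70 and its adjusted p 0.101, and DESeq2 did not call it (adjusted p = 0.108). LINC03019 region 1 on chromosome 8 (change −0.92 ± 0.28 SE, adjusted p = 0.0059) lost its call without DMSO replicate 1 (adjusted p = 0.218) or 500 nM replicate 1 (adjusted p = 0.0605), and with DESeq2 (adjusted p = 0.128). LINC01993 on chromosome 17 fell from 7.43 and 8.06 CPM in DMSO to 4.08 and 4.29 CPM at 500 nM, with 6.63 and 6.42 CPM at 150 nM. Its change was −0.88 ± 0.19 SE (adjusted p = 0.000147).

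**Figure D2:**
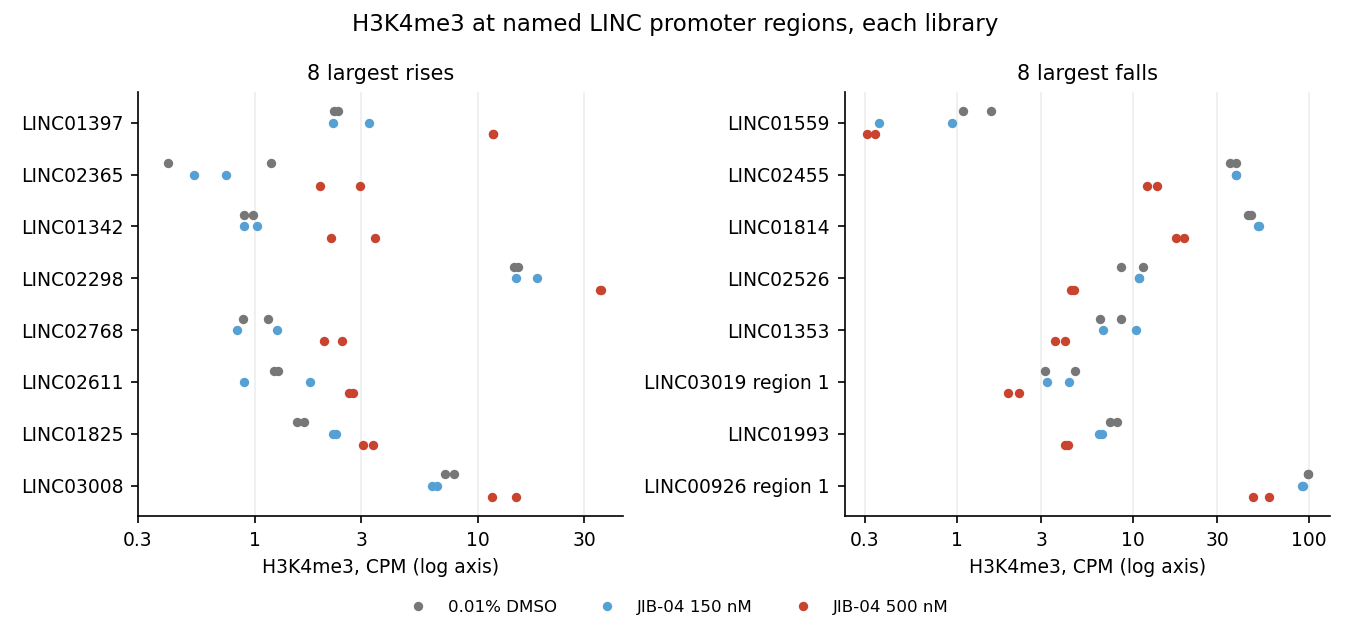
H3K4me3 in CPM (log axis) at the 8 largest rises and the 8 largest falls at 500 nM against DMSO, 1 point for each of the 6 libraries. The regions were picked for groups that do not overlap, and the 500 nM libraries run from 1.96 to 35.8 CPM on the left and from 0.306 to 58.7 CPM on the right.

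The regions of one gene did not always move together. LINC00926, which is described in B cells, had 2 regions 2304 bp apart on chromosome 15, next to TCF12, an E-protein transcription factor gene. Region 1 (57299758 to 57303652) fell from 97.7 and 97.9 CPM in DMSO to 58.7 and 47.9 CPM at 500 nM, with 90.7 and 92.4 CPM at 150 nM. Region 2 (57305957 to 57307127) stood at 11.8 and 13.2 CPM in DMSO, 13.3 and 12.7 CPM at 150 nM, and 16.9 and 15.0 CPM at 500 nM. Region 1 changed by −0.86 ± 0.05 SE (edgeR adjusted p = 1.8e-20) and region 2 by 0.37 ± 0.12 SE (adjusted p = 0.011), each with groups that did not overlap. The rise at region 2 was not called without DMSO replicate 1 (adjusted p = 0.135), without 500 nM replicate 1 (adjusted p = 0.172), with loess offsets (adjusted p = 0.107) or with DESeq2 (adjusted p = 0.193). LINC02901, with regions 39775 bp apart, also had 1 region called lower (log2 fold change −0.25) and 1 higher (0.82). LINC01585 had both regions higher, by 0.74 and 0.42. Of the 10 genes with 2 tested regions, 4 had 1 region called and the other not, and 3 had neither called. The difference between the regions of a gene was not tested, and in 5 of the 11 such genes both regions overlap the same H3K27ac region.

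At the 5 regions of highest H3K4me3 per kb the changes ran from −0.11 to −0.01 on the log2 scale. LINC01003, the region of highest H3K4me3, changed by −0.03 ± 0.04 SE (edgeR adjusted p = 0.605), and LINC01970 by −0.01 ± 0.05 SE (adjusted p = 0.946). LINC01311 and LINC03011 changed by −0.11 ± 0.04 (adjusted p = 0.0106) and −0.10 ± 0.04 (adjusted p = 0.0417). Leaving out 500 nM replicate 1 gave adjusted p = 0.133 at LINC01311 and 0.0868 at LINC03011. LINC03011 also lost its call when 500 nM replicate 2 (0.112) or DMSO replicate 2 (0.450) was left out. Both lost their calls with library size alone (adjusted p = 0.0722 and 0.195), with loess offsets (0.342 and 0.479) and with DESeq2 (0.2198 and 0.345). LINC03011 also lost it with a mean count of at least 50 (0.116) and with the 4 libraries of the contrast alone (0.0527). LINC03009 changed by −0.10 ± 0.05 (adjusted p = 0.101), and leaving out DMSO replicate 1 or 500 nM replicate 2 made this 0.0131 or 0.0151. Of the regions of highest H3K27ac, LINC02265 lost H3K4me3 (−0.53 ± 0.10 SE, adjusted p = 3.54e-05), as did LINC01814 and LINC01353 above. LINC01585 region 1 gained it (0.74 ± 0.18 SE, adjusted p = 0.000608).

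Of 19 LINC genes listed as described in B cells or lymphoma, 10 had an H3K4me3 region at a gene end and 3 were among the 144 genes. Genes were sought by the listed symbol alone. The symbol LINC00152 was absent from the RefSeq genes used, so no region was found under it, and this does not show that the gene had none. Beside LINC00926, LINC00665 changed by 0.28 ± 0.12 SE (edgeR adjusted p = 0.0584) and LINC01480 by 0.95 ± 0.47 SE (adjusted p = 0.0991). Without DMSO replicate 1 LINC00665 changed by 0.40 (adjusted p = 0.0317), and it was also called with library size alone (adjusted p = 0.0374) and with a replicate block (adjusted p = 0.0426). Over the 9 listed genes with a tested region, whether or not it met the rule, 1 was higher and 2 were lower, with a median of 0.01. For LINC00926 only region 1 was counted here, and not region 2, which was called higher. In a list of 37 genes without a LINC symbol, most of them for long noncoding RNAs, 30 had a tested region. Of these 5 were higher and 3 lower, with a median of 0.02. Beside both lists, 39.4% of all tested regions were called. The largest change called in that list was 0.62 at MIR155HG, host gene of the microRNA miR-155. The length limit of the rule fell between LINC00662/LINC02987 (3907 bp, change 0.03) and LINC00926 region 1 (3895 bp) inside it and LINC02397 (4450 bp, change −0.38) and LINC00426 (4580 bp, change −0.48) outside it.

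The direction of the H3K4me3 change went with the width of the acetylated region around the promoter. This split was chosen after the values were seen. Among the 49 LINC promoters with the narrowest H3K27ac regions (208 to 861 bp), 15 of 49 tested were higher and 4 lower, with a median log2 fold change of 0.08. The 49 of middle width (873 to 2444 bp) had 9 of 48 higher and 8 lower, with a median of 0.03. In the 49 with the widest (2466 to 13638 bp) 6 of 47 were higher and 17 lower, with a median of −0.16. The 8 largest rises all had an H3K27ac region under 1.1 kb, and 6 of the 8 largest falls had one of over 3.9 kb. The exceptions among these falls were LINC01993 (609 bp) and LINC00926 region 1 (1168 bp). Median H3K4me3 on a log2 CPM scale was 3.85, 4.90 and 4.05 in the narrowest, middle and widest group.

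**Figure D3:**
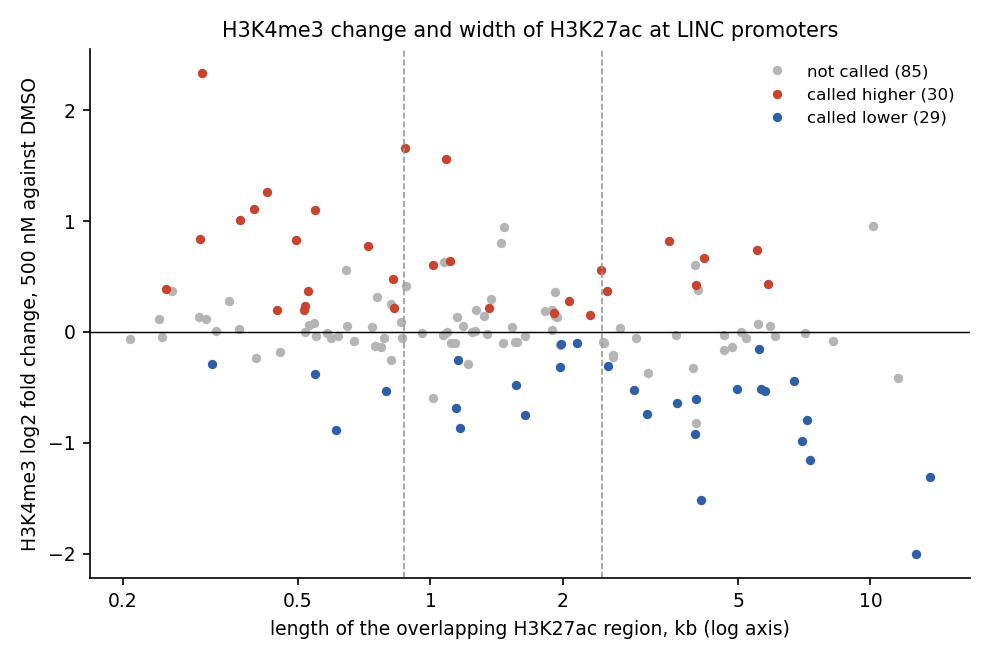
H3K4me3 log2 fold change at 500 nM against DMSO for the 144 tested LINC promoter regions, against the length of the H3K27ac region of largest overlap (kb, log axis). Dashed lines part the 3 groups by length, and colours mark regions called higher (30), called lower (29) or not called (85). Points fall from left to right, with a Spearman correlation of −0.35.

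Across the 144 regions the Spearman correlation of the H3K4me3 change with the length of the H3K27ac region was −0.35. It was −0.31 with the length of the H3K4me3 region itself and −0.24 with the H3K4me3 level per kb in DMSO. These regions share their libraries and the scaling. The same order by width stood in the other classes, cut at the same lengths. At protein-coding gene ends 540 of 2076 were higher and 207 lower with the narrowest H3K27ac regions, against 66 higher and 406 lower of 1073 with the widest. The other long noncoding RNA gene ends had 81 higher and 16 lower of 255, against 19 higher and 76 lower of 224. Away from gene ends there were 335 higher and 109 lower of 1361, against 161 higher and 562 lower of 1865. The order was thus not particular to LINC promoters. The count of 15 higher with the narrowest H3K27ac regions became 9 without DMSO replicate 1, 8 with loess offsets and 5 with DESeq2, and the count of 17 lower with the widest became 14, 21 and 12. The 4 lower with the narrowest became 2, 5 and 2 in the same order. Low-level regions rose more often over the whole table. Among the 4081 regions of lowest abundance over all regions, 1064 were higher and 187 lower, and the 19 LINC promoters among them had 6 higher and 1 lower. Of the 4080 regions next in abundance 1392 were higher and 523 lower, but the 42 LINC promoters among them had 6 higher and 9 lower. The part of abundance in the order by width was not tested.

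**Figure D4:**
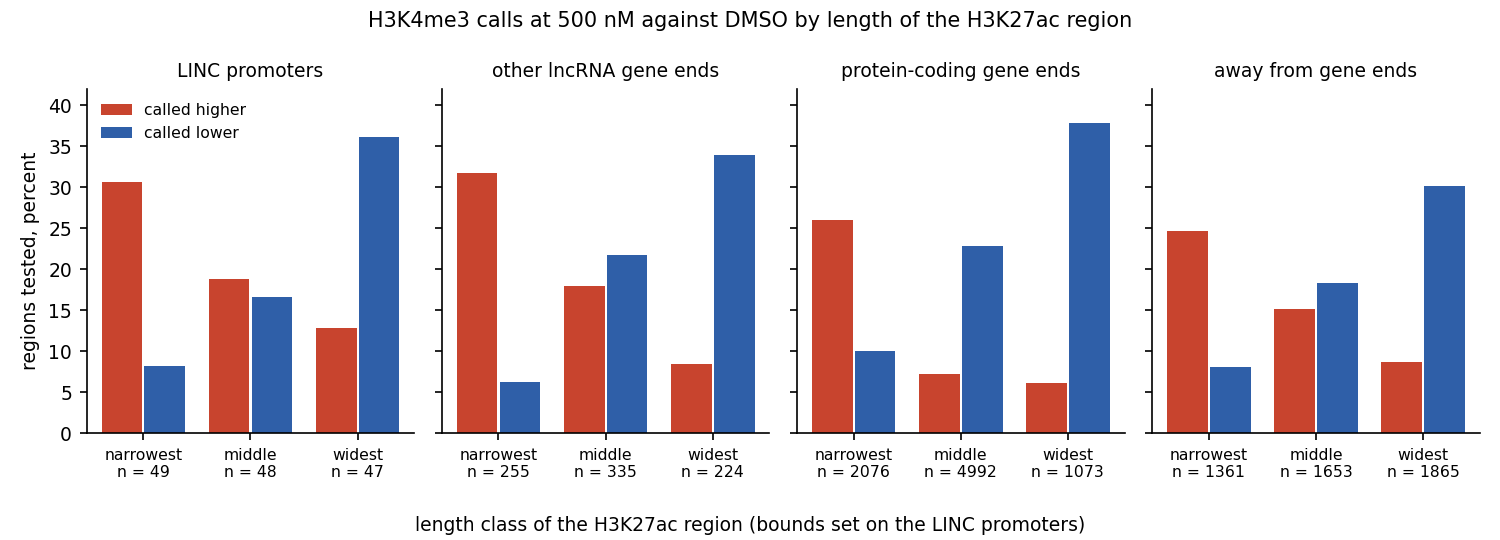
Percent of tested regions called higher or lower for H3K4me3 at 500 nM against DMSO, by length of the overlapping H3K27ac region. Shown are LINC promoters and 3 other classes with the same limits on chromosome, length and H3K27ac overlap. In each class the share called higher is largest with the narrowest H3K27ac regions, 30.6% at LINC promoters, and the share called lower with the widest, 36.2% at LINC promoters.

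At 150 nM JIB-04 no LINC promoter passed the test for H3K4me3. The edgeR test called 0 of 144 against DMSO and 0.0% of all tested regions, and DESeq2 also called 0. There were 8 LINC promoters with an unadjusted p under 0.05, against 950 of all 20402. The median log2 fold change was 0.00. Among the 16 regions of largest change at 500 nM, the change at 150 nM ran from −1.05 ± 0.47 SE at LINC01559 to 0.50 ± 0.32 SE at LINC01825, each with an adjusted p of 1. The libraries of the groups did not overlap in 40 of 144 regions (27.8%), against 33.9% of all tested regions.

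The doses differed directly as well. H3K4me3 at 500 nM against 150 nM was higher at 29 and lower at 31 of the 144 LINC promoters, against a background of 39.2% called. With loess offsets the counts were 22 higher and 38 lower, and without 150 nM replicate 1 they were 21 and 20. The libraries of both doses did not overlap in 104 of the 144 regions (72.2%), against 68.8% of all tested regions. This comparison and that of 500 nM against DMSO share the 500 nM libraries, so their values are given side by side and not set against each other. LINC01397 rose 4.27-fold against 150 nM and 5.04-fold against DMSO, and LINC01814 changed by −1.48 ± 0.07 SE against 150 nM and −1.31 ± 0.08 SE against DMSO on the log2 scale. LINC01825 and LINC01559 were not called against 150 nM (adjusted p = 0.147 and 0.258).

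H3K27ac at LINC promoters changed at few regions. Of the 141 tested H3K27ac regions, 2 were higher and 1 lower at 500 nM against DMSO, 2.13%, and 0.923% of all 54037 tested H3K27ac regions were called, 0.692% higher and 0.231% lower. The libraries of the groups did not overlap in 75 of the 141 (53.2%), against 44.6% of all. The median log2 fold change was 0.03. At LINC01686 on chromosome 1 (182614578 to 182616453), H3K27ac stood at 34.5 and 28.7 CPM in DMSO, 22.3 and 26.95 CPM at 150 nM, and 44.1 and 51.6 CPM at 500 nM. Both 500 nM libraries lay above the other 4, and the change against DMSO was 0.60 ± 0.14 SE (edgeR adjusted p = 0.0165). H3K4me3 rose at the same promoter, from 15.2 and 17.1 CPM in DMSO to 21.4 and 20.0 CPM at 500 nM (0.37 ± 0.10 SE, adjusted p = 0.0031). LINC01686 was the 1 LINC promoter of 143 tested for both marks that was called for both at 500 nM against DMSO.

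LINC02736, which lies 9073 bp from MALAT1, the gene of an abundant nuclear RNA, had 48.5 and 49.1 CPM of H3K27ac in DMSO, 48.0 and 48.6 CPM at 150 nM, and 67.6 and 72.2 CPM at 500 nM. The 500 nM libraries were above all others, by 0.52 ± 0.12 SE against DMSO (edgeR adjusted p = 0.0119). Its H3K4me3 changed by −0.33 ± 0.25 SE (adjusted p = 0.309). LINC02387 had 74.0 and 76.6 CPM of H3K27ac in DMSO, 68.6 and 70.5 CPM at 150 nM, and 52.2 and 58.7 CPM at 500 nM. This fall was −0.44 ± 0.11 SE (adjusted p = 0.0371), and its H3K4me3 changed by −0.37 ± 0.29 SE (adjusted p = 0.323). These H3K27ac calls depended on single libraries. At LINC02736 and LINC02387 leaving out any 1 DMSO or 500 nM library ended the call, with adjusted p from 0.123 to 0.415 and from 0.234 to 0.612. At LINC01686 the call ended without DMSO replicate 2 (adjusted p = 0.507) or 500 nM replicate 2 (adjusted p = 0.547). DESeq2 called none of the 3, and 8 of the 141 regions had an unadjusted p under 0.05 by that test, against 18 by edgeR's.

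**Figure D5:**
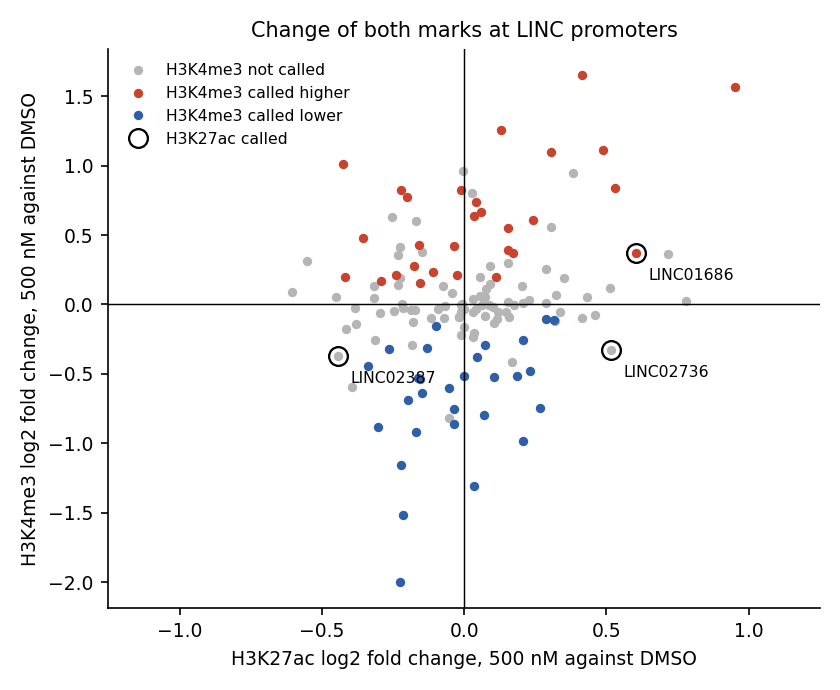
H3K4me3 log2 fold change (vertical) against H3K27ac log2 fold change (horizontal) at 500 nM against DMSO, 1 point for each of the 143 LINC promoter regions tested for both marks. Colours give the H3K4me3 call and rings the 3 regions whose H3K27ac was called, LINC01686, LINC02736 and LINC02387. H3K4me3 spans −2.00 to 1.66 here, wider than H3K27ac.

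At the 7 of the 8 largest H3K4me3 rises that had a tested H3K27ac region, H3K27ac changed by −0.43 ± 0.34 SE at LINC01825 to 0.95 ± 0.30 SE at LINC01342, with edgeR adjusted p of 0.131 or more. At the 8 largest falls H3K27ac changed by −0.30 ± 0.33 SE at LINC01993 to 0.21 ± 0.08 SE at LINC01353, with adjusted p of 0.191 or more. LINC01814, which had the largest H3K4me3 fall among the 5 regions of highest H3K27ac per kb, held 555 and 569 CPM of H3K27ac in DMSO and 575 and 578 CPM at 500 nM, a change of 0.04 ± 0.07 SE. Its H3K27ac region was 13638 bp long, so this value covers far more than the 3312 bp H3K4me3 region. Across 143 regions the Spearman correlation of the H3K4me3 and H3K27ac changes was 0.14. It was 0.13 at protein-coding gene ends and 0.26 away from gene ends. The points share libraries, and 5 H3K27ac regions are counted for 2 LINC promoters each.

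At 150 nM against DMSO edgeR called H3K27ac at 0 of the 141 regions, with 3 at an unadjusted p under 0.05, and DESeq2 called 0. One region in the whole table was called, 0.00185%. At 500 nM against 150 nM H3K27ac was higher at 2 LINC promoters, LINC01686 (0.95 ± 0.14 SE, adjusted p = 1.47e-05) and LINC02736 (0.53 ± 0.12 SE, adjusted p = 0.00547), with 1.27% of all tested regions called. The libraries of both doses did not overlap in 54 of 141 regions (38.3%), against 38.6% of all. LINC01686 kept this call in each of the 15 alternatives tried. LINC02736 lost it without 500 nM replicate 1 (adjusted p = 0.0761) or 500 nM replicate 2 (adjusted p = 0.333), and with DESeq2 (adjusted p = 0.136).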

How the data were processed

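Per the labels' protocols, chromatin was immunoprecipitated from OCI-Ly1 cells and sequenced as single reads of 50 bp. Of 30 libraries, the 12 for H3K4me3 and H3K27ac were analysed. The input, H3K9me2 and H3K9me3 libraries were not analysed here. Per the file headers, the deposited counts per consensus region were made with featureCounts 2.0.1, without strand, with reads allowed in several regions and an overlap of at least 0.2 of the read. The headers also record the option for paired reads, so whether a count is a read or a pair is open. The submitters' processing notes name GRCh38, Trim Galore 0.6.7, BWA 0.7.17-r1188, Picard 2.27.4, MACS2 2.2.7.1, deepTools 3.5.1 and edgeR 3.42.4. Their roles are not given in the sources used here.

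Each mark was fitted over all its regions and 6 libraries with edgeR 4.0.16 (glmQLFit and glmQLFTest in R 4.3.3, limma 3.58.1) after filterByExpr and TMM scaling. P-values were adjusted by Benjamini and Hochberg over all tested regions, 20402 for H3K4me3 and 54037 for H3K27ac, and called under 0.05. A standard error is the log2 fold change divided by the square root of F. The test was checked on simulated data. The filter removed 3 LINC promoters for H3K4me3 and 1 H3K27ac region. Each LINC promoter was paired with the H3K27ac region of largest overlap. Starts are printed with 1 added to the deposited start. The members and lists were chosen with earlier results of these data known. Regions are named as the 8 largest rises and 8 largest falls of H3K4me3 at 500 nM against DMSO among called regions with groups that do not overlap, those called for H3K27ac, the 5 of highest level for each mark, and those on the B-cell list. Regions just inside or outside the length limit, and LINC02901, were named after their values were seen. Alternatives used other scaling (median of ratios, library size alone, loess offsets), filters, DESeq2 1.42.0, left out single libraries, or changed the rule.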

Additional observations from a re-analysis of the deposited data

How the results depend on the processing

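With DESeq2's Wald test H3K4me3 was called at 28 LINC promoters at 500 nM against DMSO (59 with edgeR) and at 29 against 150 nM (60 with edgeR). Every other alternative gave a total within 1.5 times the reported one, though the rises against DMSO went from 30 to 18 without DMSO replicate 1 and the falls against 150 nM from 31 to 20 without 150 nM replicate 1. Leaving out each library in turn gave 41 to 58 calls against DMSO and 41 to 60 against 150 nM. At 150 nM against DMSO each H3K4me3 alternative gave 0 calls. The averaged 150 nM H3K4me3 libraries and the split by width were chosen after seeing the data. With those libraries averaged as 1 sample the counts were 58, 46 and 0. The median change of LINC promoters at 500 nM against DMSO ran from −0.05 with loess offsets to 0.03 with library size alone.

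The few H3K27ac calls moved with many settings, and the cause was not tested. The 150 nM H3K27ac libraries, which differed from each other more than the replicates of the other groups, entered the shared estimate of spread. At 500 nM against DMSO the 3 calls became 11 with the 4 libraries of the contrast alone, 0 with DESeq2, 0 at an adjusted p under 0.01, 1 with an overlap of at least 50% of both regions, and 9 with a term that set DMSO replicate 2 and 150 nM replicate 2 apart. Leaving out a library gave 0 to 12 calls: 0 without DMSO replicate 2 or 500 nM replicate 2, 1 without DMSO replicate 1 or 500 nM replicate 1, and 12 without either 150 nM library. At 500 nM against 150 nM the 2 calls became 1 with DESeq2, 5 with that term, and 1 with that overlap. Leaving out a library gave 1 to 9 calls there and 0 to 1 at 150 nM against DMSO, the 1 without 150 nM replicate 1.

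Libraries of different groups shared only a replicate number. The deviations of same-numbered libraries correlated at 0.00 to 0.05 for H3K4me3 and 0.00 to 0.13 for H3K27ac. With a replicate block H3K4me3 was called at 61 LINC promoters at 500 nM against DMSO, 64 against 150 nM and 0 at 150 nM, and H3K27ac at 6, 7 and 0.

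With 2 libraries a group and as few as 3 counts at LINC01559, depth limits what a missed call shows.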
